A study of Mus musculus with 3 samples.

Results

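The gasdermin genes examined here are Gsdmc, Gsdmc2, Gsdmc3, Gsdmc4 and Gsdmd, 5 of the 32285 genes in the deposited matrices, taken by gene symbol. They were chosen by their UMI levels across cell classes and libraries in an earlier look at these same counts, so those levels are given as descriptions. The source was colon of germ-free animals, sequenced cell by cell in droplets with a 3′ reagent kit, in which a captured transcript is counted as a unique molecular identifier (UMI) carried by a cell barcode. There were 3 libraries, 1 for each group: germ-free mice that had been colonized by a BT mutant, others colonized by BT WT, and others that had received PBS. What BT stands for, which change the mutant carries, and the age, sex and number of the animals or the time after colonization are not stated in the labels. With 1 library per group no test was possible: every difference below compares these libraries, and group, animal, colon stretch and preparation cannot be told apart. Intervals in brackets are exact 95% intervals and cover counting error only.

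After filtering, 6138 BT mutant, 7070 BT WT and 3198 PBS cells were kept, and the median cell had 3355, 3845 and 3671.5 UMIs in these libraries. They held 10165, 10866 and 2201 UMIs of the 5 genes. Only 6 to 13 kept barcodes were shared by any 2 libraries. Levels are UMIs summed over the cells of a class and divided by the total of that sum (CPM, counts scaled to a common total). Since a 3′ kit tags a transcript once, they were not divided by gene length. Cells were clustered without any gasdermin gene, and clusters were called like a cell type only from marker genes. Of the epithelial markers Epcam, Krt8, Krt18, Krt19, Cdh1, Vil1 and Cldn7, 7 of 7 were detected in the colonocyte-like cells of each library, as the labelled tissue, colon, would have.

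Gasdermins are cytosolic proteins whose amino-terminal part, once cut free by a protease, inserts into membranes and forms pores. Gsdmd is the classical executor of pyroptosis: inflammatory caspases cut it downstream of inflammasomes, and its pores let interleukin-18 and interleukin-1β leave the cell. The Gsdmc genes are expanded in the mouse into a cluster of copies that is expressed in intestinal epithelium and is known to be induced there by the type 2 cytokines interleukin-4 and interleukin-13 through STAT6 during worm infection.

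All 5 genes lie on chromosome 15 (gene models of GENCODE vM21, build GRCm38). The Gsdmc copies stand in a row on the minus strand, with Gsdmc (ENSMUSG00000079025) at chr15:63775968-63808759, Gsdmc2 (ENSMUSG00000056293) at chr15:63824346-63845177, Gsdmc3 (ENSMUSG00000055827) at chr15:63857724-63878558 and Gsdmc4 (ENSMUSG00000055748) at chr15:63891264-63912297. Gsdmd (ENSMUSG00000022575) lies apart on the plus strand, at chr15:75862327-75867408. The copies are near-identical, which bears on how far their counts can be told apart. The first 90 coding bases of each are shown with capitals where the 4 copies are not all alike, at 11 positions. They lie at chr15:63804503-63804592 in Gsdmc, chr15:63835854-63835943 in Gsdmc2, chr15:63869208-63869297 in Gsdmc3 and chr15:63902841-63902930 in Gsdmc4, all on the minus strand.
Gsdmc: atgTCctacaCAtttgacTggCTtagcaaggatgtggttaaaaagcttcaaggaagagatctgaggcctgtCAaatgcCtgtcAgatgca
Gsdmc2: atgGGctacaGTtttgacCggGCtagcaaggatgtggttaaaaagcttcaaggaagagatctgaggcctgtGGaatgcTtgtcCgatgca
Gsdmc3: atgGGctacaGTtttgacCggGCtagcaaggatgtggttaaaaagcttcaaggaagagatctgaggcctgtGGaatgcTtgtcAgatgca
Gsdmc4: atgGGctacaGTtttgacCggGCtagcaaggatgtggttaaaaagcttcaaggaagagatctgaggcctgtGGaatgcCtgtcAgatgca

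The 3′ end is the part a 3′ kit reads. In Gsdmc2, Gsdmc3 and Gsdmc4, the 3 copies that carried nearly all UMIs, 532, 547 and 540 bases follow the stop codon. Their last 90 coding bases thus lie before the transcript end and need not be the stretch that was read. These coding bases differed at only 5 positions, in capitals (chr15:63824878-63824967 in Gsdmc2, chr15:63858271-63858360 in Gsdmc3 and chr15:63891804-63891893 in Gsdmc4, minus strand).
Gsdmc2: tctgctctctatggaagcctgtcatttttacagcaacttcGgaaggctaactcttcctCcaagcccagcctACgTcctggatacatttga
Gsdmc3: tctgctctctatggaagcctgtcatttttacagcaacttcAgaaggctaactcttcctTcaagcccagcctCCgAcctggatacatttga
Gsdmc4: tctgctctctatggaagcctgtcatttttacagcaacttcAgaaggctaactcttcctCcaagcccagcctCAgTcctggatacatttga

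Over the whole coding sequence Gsdmc2 and Gsdmc3 were 97.1% identical, and Gsdmc4 was 93.8% identical to each of them. Gsdmc stood further off, at 87.0% to 87.5%, and Gsdmd shared 56.0% to 57.0% with the copies. In the last 500 bases of the transcripts, 31.4% of the 90-base windows of Gsdmc2 also occurred in another copy, as did 18.7% of those of Gsdmc3, 10.5% of those of Gsdmc and 0 of 411 windows of Gsdmc4. How reads that match several copies were counted is not given in the sources used here. Levels of Gsdmc2 and Gsdmc3 are therefore uncertain, and the copies are given both summed and singly.

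**Figure D1:**
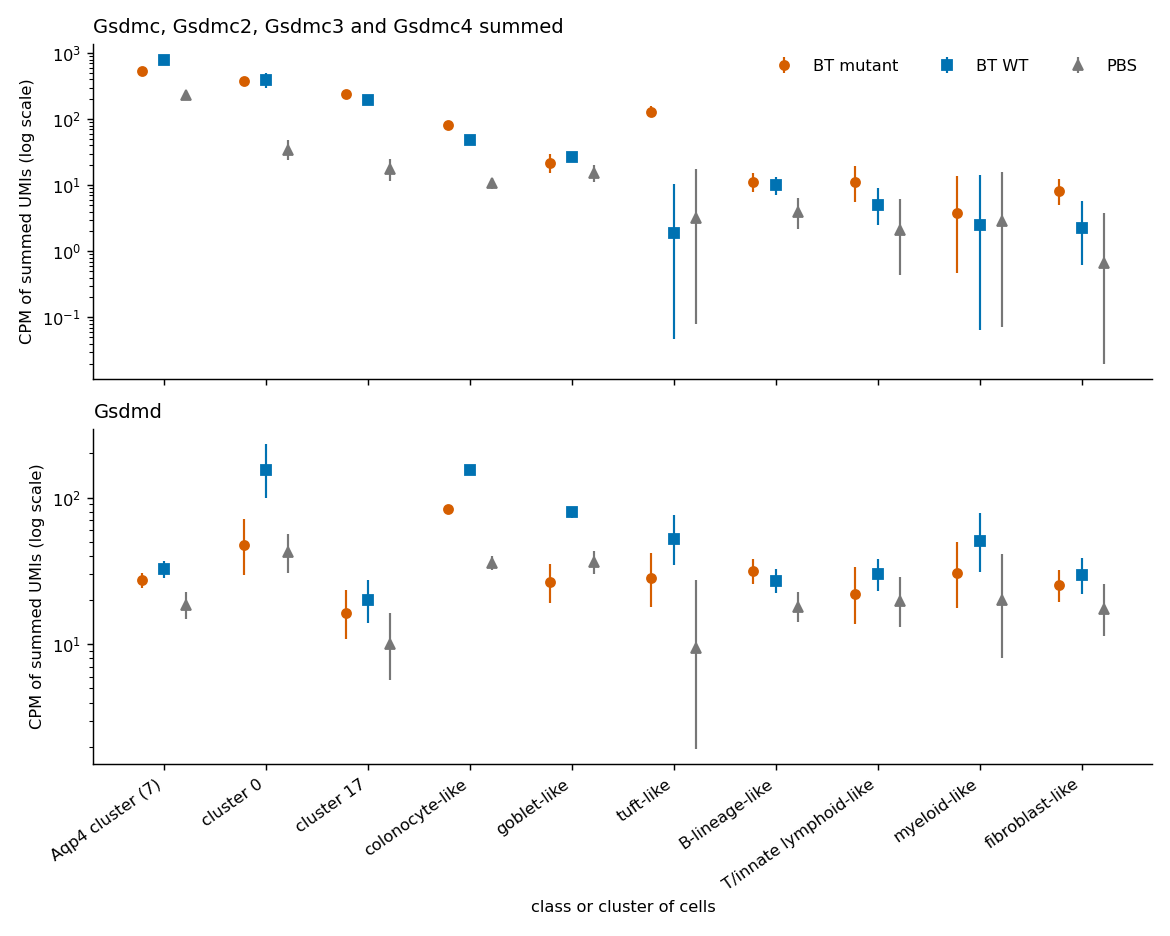
Level of the summed Gsdmc copies (top) and of Gsdmd (bottom) in 10 classes or clusters of cells, in CPM on a log axis, with exact 95% Poisson intervals (the lower end of 1 interval, for the copies in PBS fibroblast-like cells, is cut). The Gsdmc copies span from 788 CPM in the Aqp4 cluster of BT WT to under 10 CPM in myeloid-like cells, while Gsdmd in BT mutant is highest in colonocyte-like cells among those shown.

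Most Gsdmc UMIs came from a single cluster of epithelial cells. It was led by Aqp4, a water channel, with Hao2, Wfdc2 and Gsdmc4 following, and is called the Aqp4 cluster here because it met the marker rule of no class. It held 304 BT mutant, 189 BT WT and 108 PBS cells, and it carried 66.1%, 76.9% and 80.9% of the kept Gsdmc UMIs of these libraries. All 7 epithelial and all 20 colonocyte markers were detected in it in each library. So were all 12 goblet, all 12 stem and transit-amplifying and all 10 B cell markers, so detection does not name these cells. Its best marker score, a mean log2 difference from the median of the other clusters, was 0.899 for stem and transit-amplifying markers. For colonocyte markers it was 0.409. Colonocyte markers summed to 8147 to 8623 CPM, against 31846 to 48560 CPM in colonocyte-like cells. Summed, the copies stood at 536 CPM in BT mutant (522 to 551), 788 CPM in BT WT (766 to 809) and 229 CPM in PBS (216 to 243).

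The BT WT library was thus the highest and the PBS library the lowest. BT WT over PBS was 3.44-fold (3.22 to 3.67), BT mutant over PBS 2.34-fold (2.19 to 2.50) and BT mutant over BT WT 0.681-fold (0.655 to 0.708). BT mutant over PBS and BT WT over PBS share the PBS library, and the 2 folds are given side by side only. None of these intervals includes 1, but the spread between animals is unknown.

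The copies did not move by the same factor. Gsdmc4, the most abundant, had 294 CPM in BT mutant, 524 CPM in BT WT and 148 CPM in PBS. Gsdmc2 had 193 CPM in BT mutant, 192 CPM in BT WT and 59.8 CPM in PBS, so that both colonized libraries were alike for it. Gsdmc3 had 48.6 CPM in BT mutant, 72.4 CPM in BT WT and 21.95 CPM in PBS. Gsdmc itself was all but absent, with 3 UMIs in BT mutant, 1 in BT WT and 0 in PBS, where 3 UMIs over the cluster, the limit that a count of 0 allows, correspond to 0.610 CPM.

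In BT WT over PBS, the folds of Gsdmc2, Gsdmc3 and Gsdmc4 were 3.20 (2.82 to 3.65), 3.30 (2.67 to 4.10) and 3.55 (3.27 to 3.85), and their intervals overlapped. In BT mutant over BT WT they were 1.01 (0.939 to 1.08), 0.672 (0.590 to 0.765) and 0.562 (0.534 to 0.591). The interval of Gsdmc2 overlapped neither of the others, and those of Gsdmc3 and Gsdmc4 met only at their ends. Gsdmd was low in these cells, at 27.3, 32.6 and 18.5 CPM in BT mutant, BT WT and PBS. A gene is counted as called here at a fold of at least 1.5 in either direction with at least 20 UMIs over both libraries. On that count 4 of the 4 members with enough UMIs were higher in BT WT than in PBS, where 6.78% of 10791 genes were, and 3 of 4 were higher in BT mutant than in PBS, where 8.69% of genes were. Between BT mutant and BT WT, 1 of 4 was lower (Gsdmc4), where 8.91% of genes were. In the other direction, 7.17% of genes were lower in BT WT than in PBS, 11.4% lower in BT mutant than in PBS, and 7.57% higher in BT mutant than in BT WT. The members were picked with these values known, so nothing is read from these shares.

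**Figure D2:**
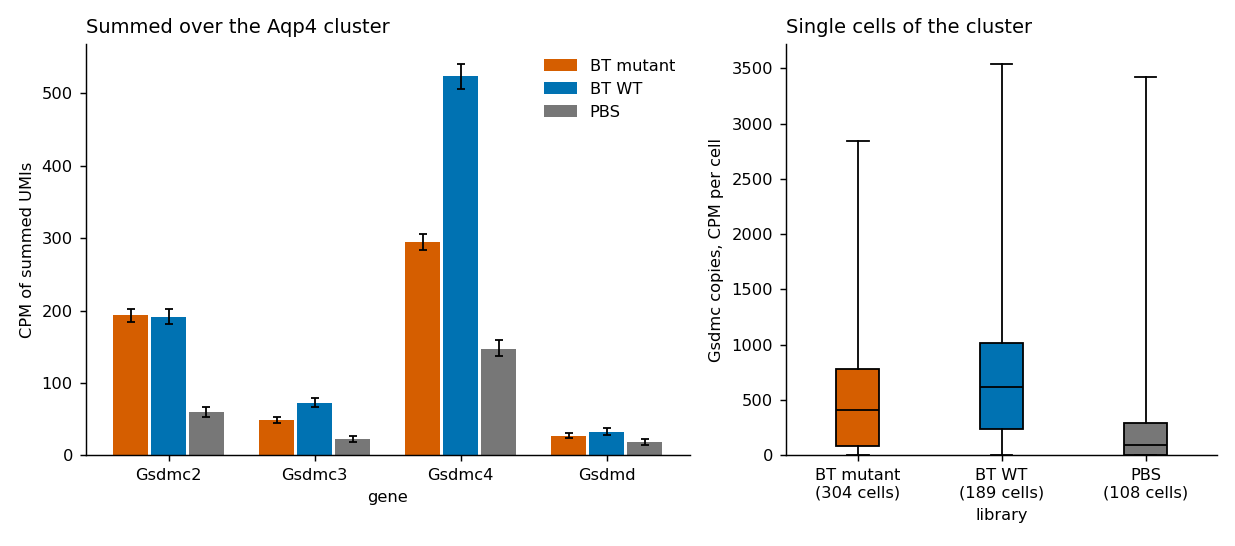
Left, levels of Gsdmc2, Gsdmc3, Gsdmc4 and Gsdmd summed over the Aqp4 cluster in each library, in CPM, with exact 95% Poisson intervals as error bars. Right, the summed Gsdmc copies per single cell in CPM, with boxes from the first to the third quartile, the median as a line and whiskers to the lowest and highest cell; the medians are 406, 619 and 92.5 CPM in BT mutant, BT WT and PBS.

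Single cells of the cluster differed widely. In BT mutant the copies ranged from 0 to 2845 CPM per cell with a median of 406 CPM, in BT WT from 0 to 3542 CPM with a median of 619 CPM, and in PBS from 0 to 3420 CPM with a median of 92.5 CPM. The tenth of the cells with the most copy UMIs held 44.1%, 43.0% and 49.1% of them in BT mutant, BT WT and PBS. The highest CPM values of single cells were thus close to each other, while the medians were not. By UMIs, the highest cell had 125 in BT mutant, 299 in BT WT and 76 in PBS. Both measures depend on the depth of a cell, so no likeness of the highest cells is read from them. In the cluster, 82.6% of BT mutant, 83.1% of BT WT and 66.7% of PBS cells had a copy UMI. Thinned to 1000 UMIs per cell, the shares were 34.5% (29.2 to 40.2), 41.9% (34.8 to 49.4) and 21.3% (14.0 to 30.2), leaving out 3 BT WT cells.

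B-lineage-like cells, which should lack the copies, were taken as the background level, whose source, free RNA or doublets, was not tested. Thinned in the same way, 0.952%, 0.580% and 0.579% of them had a copy UMI in BT mutant, BT WT and PBS. Unthinned, 3.10%, 2.87% and 1.44% did, at medians of 2739.5, 2814 and 3477 UMIs per cell, against medians of 23689, 23666 and 36833.5 UMIs in the Aqp4 cluster.

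The copies were found together in cells. Among Aqp4-cluster cells thinned to 5000 UMIs, Gsdmc2 was detected in 60.0% of the BT mutant cells with a Gsdmc4 UMI (51.8 to 67.8) and in 32.0% of those without (23.9 to 40.9). In BT WT it was detected in 57.0% of cells with Gsdmc4 (47.4 to 66.3) and 24.1% of those without (13.5 to 37.6), and in PBS in 36.4% (20.4 to 54.9) and 12.1% (5.38 to 22.5). Gsdmd showed no such gap beyond counting error, with 12.3% and 9.60% in BT mutant, 19.3% and 13.0% in BT WT, and 9.09% and 6.06% in PBS. How reads that match several copies were counted is not given, and their part in the joint detection was not tested.

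Other values also differed between the libraries in the Aqp4 cluster. The 12 goblet markers, all detected in each library, summed to 531 CPM in BT mutant, 1621 CPM in BT WT and 2340 CPM in PBS, so they were highest in PBS, where the copies were lowest. The 20 colonocyte markers differed little, at 8623, 8504 and 8147 CPM. The 12 T cell markers summed to 13.8 to 35.6 CPM, with Cd3e, Cd8a and Cd4 at 0 in BT mutant and PBS. Median mitochondrial shares were 9.81%, 11.6% and 12.5%, and median depth was highest in PBS. Aqp4 had 646, 956 and 601 CPM. The nuclear RNA Malat1 had 8818, 14647 and 17381 CPM, Neat1 had 510.0, 796 and 619 CPM, and Hoxb13, a gene of the distal colon, had 65.5, 196 and 156 CPM. The part of these in the level of the copies was not tested.

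**Figure D3:**
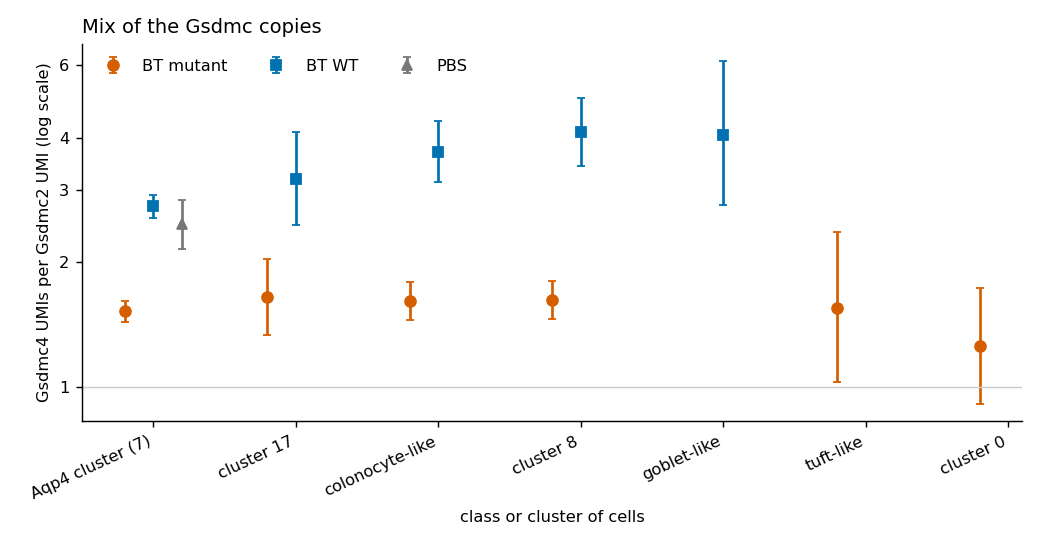
Number of Gsdmc4 UMIs per Gsdmc2 UMI, on a log axis, with exact 95% intervals, in the classes and clusters of each library with at least 30 UMIs of each of these copies. BT mutant values lie between 1.25 and 1.65 and BT WT values between 2.73 and 4.13; PBS has a value in the Aqp4 cluster only.

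The mix of the copies differed between the colonized libraries in the Aqp4 cluster, in colonocyte-like cells with their cluster 8, and in cluster 17, the sets of cells with at least 30 UMIs of both Gsdmc2 and Gsdmc4 in each of these libraries. In the Aqp4 cluster there were 1.52 Gsdmc4 UMIs per Gsdmc2 UMI in BT mutant (1.43 to 1.62), 2.73 in BT WT (2.56 to 2.92) and 2.47 in PBS (2.15 to 2.84). The BT WT and PBS intervals overlapped and the BT mutant interval lay below both. In colonocyte-like cells the ratio was 1.61 in BT mutant (1.45 to 1.79) and 3.70 in BT WT (3.12 to 4.39). In cluster 17 it was 1.65 in BT mutant (1.34 to 2.03) and 3.18 in BT WT (2.46 to 4.15).
Over all kept cells, Gsdmc2 made up 35.6% of copy UMIs in BT mutant (34.6 to 36.7), 23.6% in BT WT (22.6 to 24.6) and 26.1% in PBS (23.8 to 28.5). Gsdmc3 stayed at 9.45%, 8.86% and 8.90%, with overlapping intervals, and Gsdmc4 took 54.9%, 67.6% and 65.0%. Where UMIs were few the mix could not be told apart: in B-lineage-like cells Gsdmc2 had 13 of 39 copy UMIs in BT mutant, 33.3% (19.1 to 50.2), and 15 of 42 in BT WT, 35.7% (21.6 to 52.0). How ambiguous reads were counted bears on the ratio too, and its part was not tested.

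Outside the Aqp4 cluster the copies followed a steep order. Among classes and clusters with at least 50 cells of the library, in BT mutant cluster 0 had 376 CPM (323 to 436), cluster 17 had 244 CPM (222 to 269), tuft-like cells had 129 CPM (106 to 156), colonocyte-like cells had 80.5 CPM (76.8 to 84.4) and the unnamed cluster 9 had 62.7 CPM (45.4 to 84.5). Goblet-like cells, the mucus makers, had 21.6 CPM (15.1 to 29.9), and B-lineage-like, T and innate lymphoid-like and fibroblast-like cells had 8.15 to 11.1 CPM with overlapping intervals. BT WT gave the order Aqp4 cluster, cluster 0 at 394 CPM (302 to 506), cluster 17 at 196 CPM (176 to 217), colonocyte-like cells at 48.7 CPM (45.6 to 52.0) and goblet-like cells at 26.3 CPM (22.7 to 30.4). In PBS every class outside the Aqp4 cluster was at or under 34.6 CPM.

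Cluster 0 was an unnamed mixture of shallow barcodes, with a median of 953.5 UMIs, in which adipocyte and colonocyte markers met. There the copies had 175 UMIs in 237 BT mutant cells, 61 UMIs in 104 BT WT cells and 36 UMIs in 761 PBS cells. Cluster 17 was led by Gcg, Pyy and the proliferation gene Mki67, with 63 BT mutant, 52 BT WT and 31 PBS cells, and its copies stood at 244, 196 and 17.6 CPM. Its PBS cells were of another make-up, since the enteroendocrine markers summed to 7241 CPM in PBS, against 2.25 CPM in BT mutant and 1.66 CPM in BT WT. With under 50 PBS cells no fold is given for it.

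The tuft-like value of BT mutant came from a few cells. Of its 110 copy UMIs, 102 lay in 5 of 122 cells. The 10 cells with any copy UMI also held 83 of the 89 Aqp4 UMIs of the class and had a median of 25149.5 UMIs, against 5380 UMIs in the other tuft-like cells of that library. Tuft-like cells of BT WT and PBS had 1 copy UMI each.

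In colonocyte-like cells, the absorptive lining cells, the copies ran in the opposite direction between the colonized libraries. They summed to 80.5 CPM in BT mutant, 48.7 CPM in BT WT (45.6 to 52.0) and 10.8 CPM in PBS (8.85 to 13.0). BT mutant over BT WT was 1.65-fold (1.52 to 1.79), BT WT over PBS 4.52-fold (3.70 to 5.57) and BT mutant over PBS 7.47-fold (6.14 to 9.15). Gsdmc2 had 27.7 CPM in BT mutant, 9.55 CPM in BT WT and 1.90 CPM in PBS. Gsdmc4 had 44.7 CPM in BT mutant, 35.3 CPM in BT WT and 8.29 CPM in PBS. Gsdmc3 had 8.05 CPM in BT mutant, 3.90 CPM in BT WT and 0.599 CPM in PBS. With Gsdmd, 4 of 4 members were called higher in BT mutant than in PBS, where 22.9% of genes were called higher and 11.4% lower, and 4 of 4 higher in BT WT than in PBS, where 37.3% were. Between BT mutant and BT WT, 2 of 4 were higher (Gsdmc2 and Gsdmc3) and 1 lower (Gsdmd), where 12.6% of genes were higher and 20.5% lower.

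These sums rest on different clusters in each library. Most copy UMIs of the colonized libraries in the class lay in cluster 8, which held 1633 of 1721 in BT mutant and 780 of 888 in BT WT. Cluster 8 had 552 of the 2905 colonocyte-like cells of BT mutant, 189 of 3228 of BT WT and 8 of 373 of PBS. Within it the copies were lower in BT mutant, at 123 CPM (118 to 130), against 150 CPM in BT WT (140 to 161), a fold of 0.824 (0.756 to 0.898). Without cluster 8 the log2 ratio of BT mutant over BT WT, which takes CPM plus 10, was 0.19 in place of 0.62, and that of BT WT over PBS was -0.17 in place of 1.498. In cluster 3 the copies had 5.13 CPM in BT mutant and 6.96 CPM in BT WT, from 4 and 64 UMIs. In cluster 2 they had 8.69 and 21.6 CPM, from 25 and 7 UMIs. B-lineage-like cells had 11.1 and 9.98 CPM. The part of free RNA was not tested, and no expression or difference is read from the ratios without cluster 8. Inside cluster 8 the copies differed in direction: Gsdmc2 had 42.3 CPM in BT mutant and 27.1 CPM in BT WT, 1.56-fold (1.30 to 1.89), and Gsdmc4 had 68.6 and 112 CPM, 0.613-fold (0.552 to 0.682). The part of the share of cluster 8 in the class level was not tested.
Of the PBS colonocyte-like cells, 340 were in cluster 6, which held no cell of the other libraries, so in PBS class and library cannot be told apart. The thinned share of PBS colonocyte-like cells with a copy UMI, 0.565% (0.0685 to 2.03), rests on 2 cells and could not be told apart from the 0.579% of PBS B-lineage-like cells. By summed UMIs the PBS level of 10.8 CPM lay above the 3.87 CPM of PBS B-lineage-like cells (2.17 to 6.39), from 108 and 15 UMIs.

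**Figure D4:**
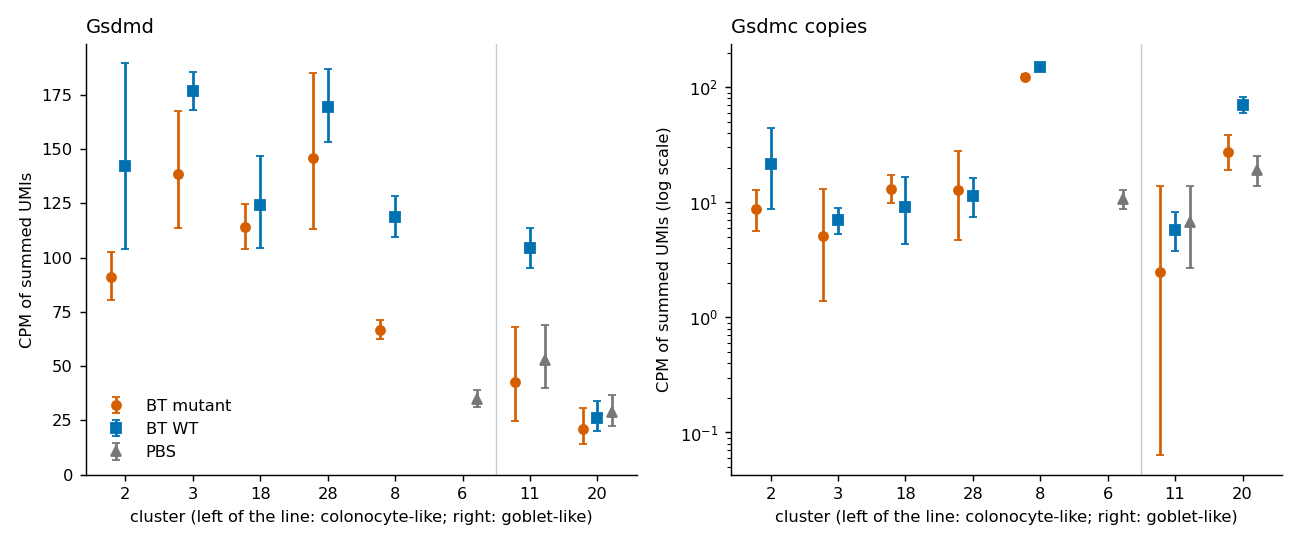
Gsdmd (left, CPM) and summed Gsdmc copies (right, CPM on a log axis) in the colonocyte-like clusters 2, 3, 18, 28, 8 and 6 and the goblet-like clusters 11 and 20, for clusters with at least 50 cells in a library, with exact 95% Poisson intervals. In each colonocyte-like cluster shared by both, Gsdmd has its point estimate lower in BT mutant than in BT WT, and the Gsdmc copies stand out in cluster 8.

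Gsdmd was spread over more cell types and reached 83.2 CPM and 155 CPM in the colonocyte-like cells of BT mutant and BT WT, which held 71.4% and 69.5% of the kept Gsdmd UMIs of these libraries. With its interval, the level there was 83.2 CPM in BT mutant (79.4 to 87.2), 155 CPM in BT WT (149.5 to 161) and 35.9 CPM in PBS (32.2 to 39.8), from 1779, 2829 and 359 UMIs. BT mutant over BT WT was 0.536-fold (0.505 to 0.569), BT WT over PBS 4.33-fold (3.88 to 4.84) and BT mutant over PBS 2.32-fold (2.07 to 2.61). BT WT was the highest and PBS the lowest.

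Unlike for the copies, the order of the colonized libraries was the same inside the clusters. Gsdmd had 66.8 CPM in BT mutant and 119 CPM in BT WT in cluster 8, 91.1 and 142 CPM in cluster 2, 139 and 176 CPM in cluster 3, 114 and 124 CPM in cluster 18, and 146 and 169 CPM in cluster 28, with BT mutant first in each pair. BT mutant was lower in 5 of 5 clusters, and in clusters 18 and 28 the interval of the fold included 1, at 0.756 to 1.12 and 0.656 to 1.12. Averaged over these clusters with equal weight, the log2 ratio was -0.40 in place of -0.83. PBS could be set beside them only through cluster 6, at 34.98 CPM (31.4 to 38.9), whose median depth of 23124.5 UMIs was close to the 20410.5 and 22400 UMIs of BT mutant and BT WT cells in cluster 8.

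Thinned to 1000 UMIs, 9.97% of BT mutant (8.89 to 11.1), 14.7% of BT WT (13.5 to 15.98) and 3.39% of PBS (1.76 to 5.85) colonocyte-like cells had a Gsdmd UMI. Without thinning these were 36.8%, 48.8% and 45.3%, at medians of 3390, 3964.5 and 20842 UMIs per cell, the PBS cells being the deepest. No class is known to lack Gsdmd. B-lineage-like cells had thinned shares of 2.68%, 2.75% and 2.03% and levels of 31.5, 27.1 and 18.1 CPM in BT mutant, BT WT and PBS. The PBS colonocyte-like share lay within counting error of the PBS B-lineage-like share. By summed UMIs the PBS colonocyte-like level of 35.9 CPM lay above the 18.1 CPM of PBS B-lineage-like cells, from 359 and 70 UMIs.
Along with Gsdmd, the 12 goblet markers in colonocyte-like cells summed to 305 CPM in BT mutant, 2164 CPM in BT WT and 1642 CPM in PBS, all detected in each library. The 20 colonocyte markers summed to 37655, 31846 and 48560 CPM, and the 12 macrophage and monocyte markers to 188, 248 and 300 CPM, with Fcgr1 at 0 in BT mutant and PBS. Malat1, a nuclear RNA, had 40889, 69268 and 60391 CPM. Their part in the Gsdmd level was not tested.

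In goblet-like cells Gsdmd had 26.4 CPM in BT mutant (19.2 to 35.4), 79.1 CPM in BT WT (72.6 to 86.0) and 36.3 CPM in PBS (30.2 to 43.4). BT mutant over BT WT was 0.333-fold (0.239 to 0.454) and BT WT over PBS 2.18-fold (1.79 to 2.67). BT mutant over PBS was 0.726-fold, and its interval of 0.502 to 1.03 included 1. The class was made of 2 clusters that behaved differently. In cluster 11, led by Clca1, Tff3 and Muc2, Gsdmd had 42.6 CPM in BT mutant, 104 CPM in BT WT and 52.9 CPM in PBS. In cluster 20, where goblet markers met Gcg and Pyy, it had 21.3, 26.2 and 28.9 CPM, with overlapping intervals. Cluster 11 held 87 of 149 goblet-like cells in BT mutant, 802 of 877 in BT WT and 115 of 191 in PBS, so the class level of BT WT also rests on its share of cluster 11. In the same cells the 20 colonocyte markers, all detected, summed to 4182, 11796 and 4975 CPM in BT mutant, BT WT and PBS, and Malat1 had 16169, 40472 and 22279 CPM. Their part in the Gsdmd level was not tested.

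In T and innate lymphoid-like cells it had 22.1, 29.97 and 19.8 CPM in BT mutant, BT WT and PBS, in fibroblast-like cells 25.2, 29.6 and 17.5 CPM, and in myeloid-like cells 30.8, 50.9 and 19.9 CPM from 16, 20 and 7 UMIs. In tuft-like cells it had 28.2, 52.3 and 9.42 CPM from 24, 28 and 3 UMIs, and BT mutant over BT WT was 0.539-fold (0.299 to 0.964). BT WT over PBS was 2.55-fold in myeloid-like cells (1.04 to 7.15). PBS was the lowest library in each of these classes. For BT mutant over BT WT the interval of the fold included 1 in T and innate lymphoid-like, fibroblast-like and myeloid-like cells. Unnamed clusters with few UMIs reached higher values: cluster 24 had 70.2 CPM in BT mutant and 92.2 CPM in BT WT, from 25 and 67 UMIs, and cluster 0 had 47.3, 155 and 42.3 CPM in BT mutant, BT WT and PBS, from 22, 24 and 44 UMIs. Among the named classes of BT WT and the Aqp4 cluster, the order was colonocyte-like, goblet-like, tuft-like, myeloid-like, endothelial-like at 39.1 CPM (21.4 to 65.6) and the Aqp4 cluster. Intervals overlapped from the tuft-like cells onward. In PBS the colonocyte-like and goblet-like levels did not differ beyond counting error.

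**Figure D5:**
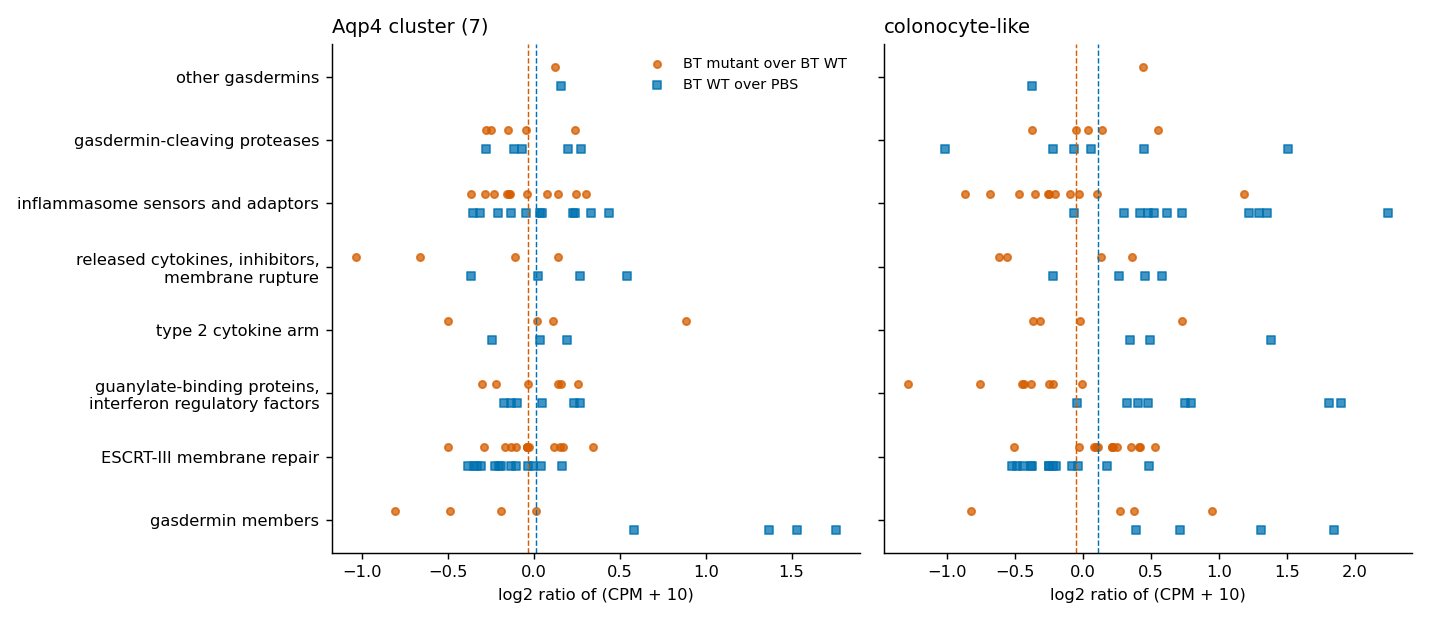
Log2 ratio of CPM plus 10 for the genes of 7 pathway lists and for the gasdermin members with at least 20 UMIs over both libraries, in the Aqp4 cluster (left) and in colonocyte-like cells (right), for BT mutant over BT WT (circles) and BT WT over PBS (squares). Dashed lines mark the median of all genes in each comparison; most list genes of the Aqp4 cluster lie close to it, and those of colonocyte-like cells spread more widely.

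The other genes of the pathway were followed in the same cells. In the Aqp4 cluster, most of them stayed within 1.5-fold in BT WT over PBS, where Gsdmc2, Gsdmc3, Gsdmc4 and Gsdmd were past it. The members were picked with these values known, so nothing is read from this contrast. The proteases that cut gasdermins had 0 of 5 members called in either direction in BT WT over PBS, with a median log2 ratio of -0.07 against 0.01 for all genes. Their most abundant member, Casp1, which cuts Gsdmd, had 103 CPM in BT mutant, 127 CPM in BT WT and 139 CPM in PBS. Of the inflammasome sensors and adaptors, 1 of 11 was called higher in BT WT than in PBS, and 2 of 11 lower in BT mutant than in BT WT, beside 6.78% and 8.91% of all genes. Pycard, the ASC adaptor that links sensors to caspase-1, was their most abundant member, with 675 CPM in BT mutant, 546 CPM in BT WT and 401 CPM in PBS. Naip1, a sensor of bacterial secretion-system needles, had 44.8, 60.8 and 59.1 CPM.

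The released cytokines followed another course. Il18, the interleukin that gasdermin pores release, had 77.0 CPM in BT mutant, 168 CPM in BT WT and 113 CPM in PBS, a BT mutant over BT WT fold of 0.457 (0.416 to 0.502). Il1rn, the antagonist of the interleukin-1 receptor, had 21.7 CPM in BT mutant, 40.3 CPM in BT WT and 54.9 CPM in PBS. Of this list, 3 of 4 members were called lower in BT mutant than in BT WT and 0 of 4 were called in BT WT over PBS, beside 8.91% of all genes called lower in the first comparison and 6.78% higher and 7.17% lower in the second. For the type 2 cytokine arm, Il13 and Il4 had 0 UMIs in the Aqp4 cluster of all 3 libraries, where the limit that a count of 0 allows is 0.317 to 0.610 CPM. They were counted in T and innate lymphoid-like cells, Il13 with 2, 28 and 1 UMIs and Il4 with 7, 15 and 5 UMIs in BT mutant, BT WT and PBS. That is 2.01, 12.7 and 0.708 CPM of Il13 and 7.02, 6.81 and 3.54 CPM of Il4. Stat6, which transmits interleukin-4 and interleukin-13 signals, had 23.8, 23.4 and 22.6 CPM in BT mutant, BT WT and PBS. Il4ra, a chain of their receptor, had 4.86, 3.77 and 6.30 CPM. Retnlb, a secreted epithelial product induced by type 2 cytokines, had 88 UMIs in BT mutant, 3 in BT WT and 5 in PBS, which is 9.30, 0.452 and 1.02 CPM. B-lineage-like cells, which should lack it, had 9.64, 0.238 and 2.07 CPM from 34, 1 and 8 UMIs. The BT mutant level in the Aqp4 cluster was thus not above theirs in CPM. Its 88 UMIs came from 304 cells, and the 34 UMIs from 1192 shallower cells. The part of free RNA was not tested, and no expression or difference is read from this level. Goblet-like cells had 1059, 37.2 and 68.5 CPM of Retnlb.

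Of the other lists in these cells, Irf2, an interferon regulatory factor known to drive Gsdmd transcription, had 84.0, 86.6 and 99.2 CPM in BT mutant, BT WT and PBS, and Irf1 had 41.4, 53.5 and 42.9 CPM. Irgm2, an immunity-related GTPase, was scarce, with 38, 18 and 4 UMIs. Of the ESCRT-III genes, which repair membranes pierced by gasdermins, 0 of 13 were called in BT WT over PBS and 1 of 13 was lower in BT mutant than in BT WT, a share close to the 8.91% of all genes. That was Chmp1b, with 32.6, 50.2 and 58.9 CPM in BT mutant, BT WT and PBS, while the most abundant, Chmp2a, had 251, 222 and 223 CPM and Chmp6 had 68.2, 51.7 and 70.7 CPM. Gsdme, the only other gasdermin with enough UMIs, had 14.5, 12.5 and 10.2 CPM. Nlrp9b, Nlrp1b, Il18bp, Gbp7 and Il13ra1, named after their values were seen, were called lower in BT mutant than in BT WT. Nlrp9b had 2.33, 3.62 and 0.813 CPM in BT mutant, BT WT and PBS, from 22, 24 and 4 UMIs. It was also called higher in both colonized libraries than in PBS. In the same order, Nlrp1b had 1.69, 2.87 and 2.44 CPM from 16, 19 and 12 UMIs. Il18bp had 1.48, 2.41 and 2.24 CPM from 14, 16 and 11 UMIs. Gbp7 had 0.634, 2.41 and 2.03 CPM from 6, 16 and 10 UMIs. Il13ra1, a receptor chain for interleukin-13, had 15.01, 25.3 and 20.9 CPM from 142, 168 and 103 UMIs. Chmp3 was called lower in BT mutant than in PBS, at 127 CPM in BT mutant, 157 CPM in BT WT and 200.2 CPM in PBS.

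In colonocyte-like cells, 8 of 11 inflammasome sensors and adaptors were called higher in BT WT than in PBS and 0 lower, with a median log2 ratio of 0.62 against 0.11 for all genes. This has to be read beside the class itself, in which 37.3% of 11708 genes were called higher in BT WT than in PBS. Its PBS cells were mostly of cluster 6, with 340 PBS cells and none of the other libraries. The part of this make-up in the levels of the list genes was not tested. Nlrp9b, an epithelial sensor, had 61.6 CPM in BT mutant, 121 CPM in BT WT and 17.6 CPM in PBS. Naip5, a flagellin receptor, had 46.6, 42.6 and 10.6 CPM, and Naip1, the most abundant, had 180, 252 and 172 CPM. Pycard had 145 CPM in BT mutant, 58.2 CPM in BT WT and 61.5 CPM in PBS.

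Among the proteases, Casp4, the mouse caspase-11 gene that senses lipopolysaccharide and cuts Gsdmd, had 47.5 CPM in BT mutant, 64.6 CPM in BT WT and 16.2 CPM in PBS. Casp1 differed little, at 152, 148 and 156 CPM. Of this list 1 of 6 was called higher and 2 of 6 lower in BT WT than in PBS, where 37.3% of genes were higher and 15.7% lower. In the same comparison, 7 of 8 guanylate-binding proteins and interferon regulatory factors were called higher and 0 lower, beside those same shares of all genes. Gbp2, which helps to expose bacterial lipopolysaccharide to caspase-11, had 6.93 CPM in BT mutant, 31.3 CPM in BT WT and 1.10 CPM in PBS. Irf1 had 127, 177 and 43.1 CPM, and Irf2 had 151, 208 and 119 CPM.

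In BT mutant over BT WT, where 20.5% of genes of the class were called lower and 12.6% higher, 4 of 8 genes of that list were lower and 0 higher, and 2 of 11 sensors and adaptors were lower and 1 higher. Named after their values were seen, the lower ones were Gbp2, Gbp3, Gbp7 and Irgm2 of the first list and Nlrp6 and Nlrp9b of the second, where the higher one was Pycard. The class rests on different clusters in these libraries. Cluster 3 held 173 BT mutant and 1855 BT WT cells, and cluster 18 held 1403 and 343. The part of this make-up in the calls and levels was not tested. Il18 had 44.3, 73.2 and 59.4 CPM in BT mutant, BT WT and PBS, Il1rn 28.3, 24.9 and 15.5 CPM, and Il18bp, which binds interleukin-18, 3.28, 9.60 and 3.10 CPM. Stat6 had 48.9 CPM in BT mutant, 66.0 CPM in BT WT and 19.1 CPM in PBS. Retnlb, at 7.30, 0.439 and 1.10 CPM, was in BT mutant again not above the B-lineage-like level, and no expression or difference is read from it. Gsdme had 14.4, 7.96 and 13.3 CPM. Of the ESCRT-III genes, Chmp2a had 282, 209 and 297 CPM, Chmp3 178, 182 and 240 CPM, and Pdcd6, which recruits the ESCRT machinery to wounds, 81.2, 53.3 and 80.8 CPM.

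Across 35 sums of a class or unnamed cluster in a library, each with at least 50 cells, the genes most like the summed copies by Pearson correlation of log2 of CPM plus 10 were Aqp4 (r = 0.960), Slc39a5 (0.927), Hao2 (0.923), Paqr5 (0.910) and Slc5a8 (0.908), among 7631 genes with at least 50 CPM in any sum. Those most like Gsdmd were Abca7 (0.868), Igsf9 (0.827), Tnip1 (0.827), Ly6g (0.824) and Sectm1b (0.823). Gsdmc2 with Gsdmc4, Gsdmc2 with Gsdmc3 and Gsdmc3 with Gsdmc4 gave 0.973, 0.971 and 0.956, while the summed copies and Gsdmd gave 0.0748. The sums share libraries and depth, so these values are descriptions.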

How the data were processed

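Per the file headers, Cell Ranger 5.0.0 made the deposited raw UMI counts per gene and barcode. STAR and mm10 are named too, per the submitters' processing notes. A barcode was kept with 300 or more genes, 500 or more UMIs and a mitochondrial share up to 25%. Doublets were not removed, since Scrublet marked almost no cells in 2 libraries. It marked 0 of 3198 PBS, 3 of 7070 BT WT and 103 of 6138 BT mutant cells, and the marked cells were kept. An alternative removes the highest scores. Cells of all libraries were clustered with scanpy 1.11.5 (2000 variable genes without gasdermin and list genes, 30 components, 15 neighbours, Leiden resolution 1.0) into 29 clusters, of which 22 were named by a marker rule set after the clusters were seen. The members, the 7 lists and their rules were chosen with earlier results of these data known.

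UMIs were summed per class and library and given as CPM, with exact Poisson, binomial or conditional binomial intervals at 95% (scipy 1.17.1). The fold intervals were tested on simulated Poisson counts only. Such counts carry no spread between cells or animals, so that test cannot show how the intervals hold under it. Log2 ratios use CPM plus 10. A gene counts as called past 1.5-fold with at least 20 UMIs over both libraries, in classes with at least 50 cells in each. The genes named are the 5 members, the most abundant gene of a list and the gene with the largest ratio at 30 UMIs or more, and the 5 genes most like the copies and Gsdmd. Of 69 list genes 67 were found; Gsdmcl1 and Gsdmcl2 were not analysed here. Some genes that the naming rule selects are not reported here. Total UMIs were 54943483 in BT mutant, 55436776 in BT WT and 42003444 in PBS.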

Additional observations from a re-analysis of the deposited data

Results flagged for a closer look

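The summed Gsdmc copies differed in direction between the colonized libraries in colonocyte-like cells and the Aqp4 cluster. On the log2 scale of CPM plus 10, BT mutant over BT WT was 0.62 in colonocyte-like cells and 0.56 in fibroblast-like cells, but -0.55 in the Aqp4 cluster. The fibroblast-like value comes from 21 and 4 UMIs, at 8.15 CPM in BT mutant and 2.28 CPM in BT WT. These levels were not above the 11.1 and 9.98 CPM of B-lineage-like cells. The part of free RNA was not tested, and no difference is read from them. Gsdmc3 gave 0.38 in colonocyte-like cells and -0.49 in the Aqp4 cluster, and Gsdmc4 gave 0.27 and -0.81. With 1 library per group, the difference between these cells was not tested. Inside cluster 8, which held most copy UMIs of the colonocyte-like cells, the copies were lower in BT mutant, at 123 CPM, against 150 CPM in BT WT.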

How the results depend on the processing

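No paired analysis was possible because each group had 1 library. All values are log2 ratios of CPM plus 10 in this order: BT WT against PBS, then BT mutant against BT WT, then BT mutant against PBS. The copies of the Aqp4 cluster (1.74, -0.55 and 1.19) and Gsdmd in colonocyte-like cells (1.85, -0.83 and 1.02) kept their direction under every alternative run. Of the copies in colonocyte-like cells (1.498, 0.62 and 2.12), the first 2 ratios did not. BT mutant against PBS kept its direction there but fell as low as 0.013. The cause was not tested. At a mitochondrial limit of 10% the colonocyte-like copies gave 3.93, -0.65 and 3.28, and the Aqp4 cluster 2.01 and -0.73 for the first 2 ratios; Gsdmc2 and Gsdmc3 in colonocyte-like cells turned to -0.13 and -0.10 for BT mutant over BT WT. With equal weight per cell the colonocyte-like copies gave 0.62, 0.25 and 0.87, Gsdmd -0.59 and 1.34 for the ratios with BT mutant, the Aqp4 cluster -0.45 for BT mutant over BT WT, and Gsdmc3 turned to -0.20 and -0.17 over PBS. Thinned to 1000 UMIs, the colonocyte-like copies gave 0.84 and 1.41 over PBS, Gsdmd -0.58 and 1.41, the Aqp4 cluster 1.13, -0.37 and 0.76, and Gsdmc3 turned to -0.070. A pseudocount of 1 gave 2.08 and 2.79 over PBS for the copies and 2.08 and 1.19 for Gsdmd. Median-ratio size factors gave 0.76 for the copies, 1.63 and -0.69 for Gsdmd and -0.47 for the Aqp4 cluster. Over all epithelial-like cells the copies gave 0.11 and 1.55 and Gsdmd 1.58, -0.73 and 0.85. Added after seeing the data, leaving out cluster 8 gave -0.17, 0.19 and 0.013 for the copies, -0.58 and 1.41 for Gsdmd, -0.028 for Gsdmc3 and -0.32 and -0.21 for Gsdmc4; a mean over clusters gave -0.16 for the copies and -0.40 for Gsdmd in BT mutant over BT WT. With no minimum of UMIs, 15, 17 and 19 genes of the lists and members together passed 1.5-fold in the Aqp4 cluster, against 7, 10 and 11. Depth limits Gsdmc3 and every class with few UMIs. No difference is read from the copies of colonocyte-like cells without cluster 8.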
